A study of Drosophila melanogaster with 70 samples.

Results

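The domain boundaries of blastoderm embryos whose mothers carried an RNAi against mof were set beside those of late embryos. The stage 5 mof RNAi list held 2499 boundaries and the stage 15 list 2785, which makes 5284 of the 7875 boundaries in the 3 distinct lists of the series. A partner was a boundary of the other list whose midpoint lay within 2.5 kb on the same chromosome arm, and a domain was the stretch between neighbouring boundary midpoints on an arm, which gave 2494 mof RNAi domains and 2780 stage 15 domains. The match of boundaries used only their positions, so score and gene content took no part in it. Domain length does enter the domain classes below, since a longer domain has more room for a boundary of the other list.

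The series holds 70 Drosophila melanogaster samples, of which 13 are in situ Hi-C libraries, and this comparison draws on 10 of these. Both stage 5 mof RNAi libraries came from unsexed embryos in nuclear cycle 14, the progeny of mothers in which the maternal germline driver mat-a-tubGal4 (Bloomington stock 7063) was combined with RNAi stock 58281. The strain field of these 2 samples reads control RNAi although it gives stock 58281, so their group was taken from their titles. The 3 stage 5 control RNAi libraries, named here only for values set beside the others, had the same driver with stock 36304. The 8 stage 15 libraries came from embryos 14 to 16 h after egg laying in an Sxl-GFP background, with the driver of stock 7062. They were sorted as GFP positive females or GFP negative males, after mof RNAi (stock 58281) or control RNAi (stock 36304), with 2 libraries in each of the 4 combinations. All 8 name the same stage 15 list, and the labels do not say which of them it pools, so stage, RNAi and sex cannot be told apart in the comparison. The descriptions of the mof RNAi samples name a stage 5 list whose values are those of the control list. The mof RNAi list was therefore tied to its condition by its own name alone. The driver acts in the mother's germline, and the labels give no measure of how much MOF was left in these embryos. A single pooled list stood for each condition, with no replicates and no stated depth, so the 95% intervals below (Wilson for a share, Newcombe for a difference of shares) cover counting error only, and neighbouring boundaries are not independent.

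MOF acetylates histone H4, mainly at lysine 16. In flies this enzyme acts in the MSL complex, which with the roX RNAs raises transcription of the single male X chromosome, and in the NSL complex, which binds promoters of housekeeping genes on all chromosomes. Hi-C maps show chromosomes divided into contact domains, whose boundaries in flies often lie at promoters of active housekeeping genes and at sites of architectural proteins such as BEAF-32, CP190 and Chromator. Boundaries become strong in the fly embryo around the onset of zygotic transcription, in the cell cycle sampled here at stage 5.

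Of the 2499 mof RNAi boundaries, 1498 had a stage 15 partner (59.9%, interval 58.0 to 61.8). Read the other way, the same 1498 pairs made up 53.8% of the 2785 stage 15 boundaries (interval 51.9 to 55.6). The stage 5 control list, compared with the same stage 15 list, had 1598 of 2591 boundaries with a partner (61.7%). Both stage 5 comparisons share the stage 15 list. Of the 1498 pairs, 1167 had the same midpoint (77.9%), 130 had the stage 15 boundary 2.5 kb to the right, 163 had it 2.5 kb to the left and 38 lay less than 2.5 kb apart. A further 153 mof RNAi boundaries lay just outside the limit, more than 2.5 and up to 5 kb from the nearest stage 15 boundary. Most boundaries without a partner were not near misses. Their median distance to the nearest stage 15 boundary was 17.5 kb, the largest was 135 kb, and 691 lay more than 10 kb away.

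By arm, the share of mof RNAi boundaries with a stage 15 partner was 60.0% on 2L (270 of 450), 62.3% on 2R (298 of 478), 57.3% on 3L (303 of 529), 63.6% on 3R (376 of 591) and 55.7% on X (251 of 451). The 5 intervals overlapped. Set against the autosomes together (60.9%), the X was lower by 5.23 percentage points (interval of the difference -10.3 to -0.239), and the interval included 0 with tolerances of 0, 5 or 10 kb. In the control list the X had 59.4% and the autosomes 62.2%, a difference of -2.78 points (-7.75 to 2.07), so its interval included 0. Whether these differences themselves differ was not tested.

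The X difference after mof RNAi was larger among boundaries of low score rank, though the difference between score classes was not tested. Among the 1249 mof RNAi boundaries with the less negative scores the share with a partner was 37.0% on X and 47.4% on autosomes, -10.4 points (-17.3 to -3.12), and the control list gave -9.04 points there (-16.0 to -1.73). Among the 1250 with the more negative scores it was 72.8% on X and 74.6% on autosomes, -1.82 points (-8.37 to 4.16). Bins left out of the stage 5 maps also moved with it, and their part in it was not tested. The numbering of mof RNAi boundaries skips 4737 of the 52089 bins they span (9.09%), against 0 in the stage 15 list. Beside such bins 53.4% of mof RNAi boundaries had a partner, and away from them 67.9%. Away from them the X had 66.5% and the autosomes 68.1%, -1.66 points (-9.36 to 5.47). When only the most negative 50% of each list was kept, the X difference became 4.18 points (-2.86 to 10.9).

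**Figure D1:**
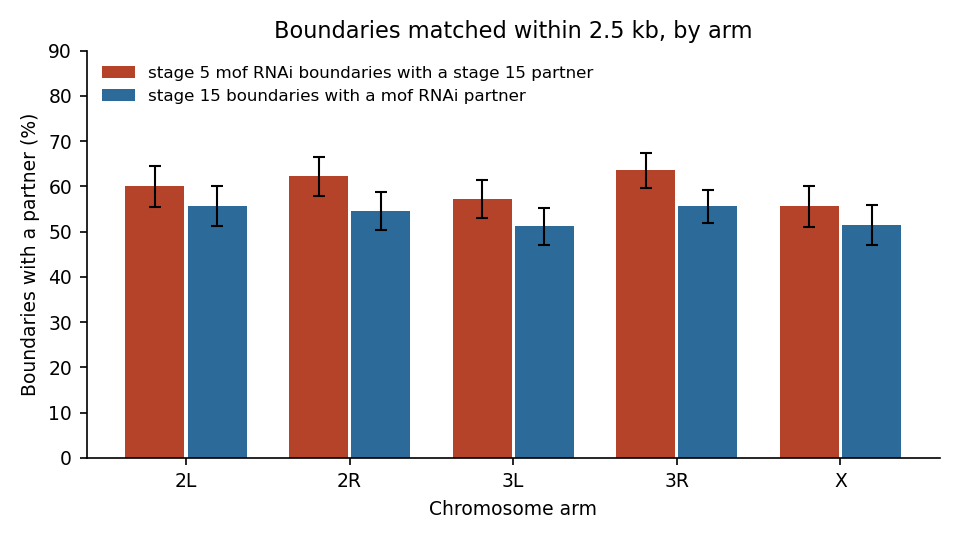
Share of boundaries with a partner within 2.5 kb (%, vertical axis) on each chromosome arm (horizontal axis). Red bars are stage 5 mof RNAi boundaries with a stage 15 partner and blue bars stage 15 boundaries with a mof RNAi partner, with 95% Wilson intervals for counting error. The red bars run between 55.7% on X and 63.6% on 3R.

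The 2 Mb of each arm nearest the centromere, measured from the last boundary of any list, stood apart. There 28 of 102 mof RNAi boundaries had a stage 15 partner (27.5%, interval 19.7 to 36.8), against 61.3% in the rest of the arms, a difference of -33.9 points (-41.8 to -24.3). Arm 2L was the exception, with 17 of 30, whereas 2R had 2 of 19, 3L 4 of 17, 3R 2 of 14 and X 3 of 22. The control list gave 28.0% in these regions.

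The score the authors gave each boundary, used here only as a rank within its own list with the most negative first, followed the match closely. In the most negative 10% of mof RNAi boundaries 198 of 250 had a stage 15 partner (79.2%, interval 73.7 to 83.8). In the least negative 10% it was 60 of 249 (24.1%, 19.2 to 29.8). Shares stayed between 74.4% and 79.2% over deciles 1 to 4 and between 24.1% and 64.4% over deciles 5 to 10. The 585 mof RNAi boundaries with a score above 0 had a partner in 32.5% of cases.

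From the stage 15 side the order was not the same. The most negative 10% of stage 15 boundaries had a mof RNAi partner in 155 of 279 cases (55.6%, 49.7 to 61.3), against 573 of 835 in deciles 2 to 4 (68.6%, 65.4 to 71.7). The control list gave 60.2% and 74.5% for the same 2 classes. The 124 top-ranked stage 15 boundaries without a mof RNAi partner lay less often at a gene end than the 155 with one (57.3% without a partner, 93.5% with). They lay more often in the 2 Mb next to a centromere (23.4% without, 4.52% with). They also lay more often in or beside mof RNAi domains with left-out bins (69.4% without, 56.8% with). Away from left-out bins the 2 classes had mof RNAi partners in 63.8% and 71.9% of cases, and their intervals (54.3 to 72.4 and 67.3 to 76.1) overlapped. The part of these bins in the result was not tested further.

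Within the 1498 pairs the ranks in the 2 lists went together, with Spearman's rho of 0.613 over all pairs, 0.650 over the 251 pairs on X and 0.605 over the 1247 autosomal pairs. These pairs share 1 map each and neighbouring domains, so the values are a description. Of the 391 pairs whose mof RNAi score was in deciles 1 and 2 of its list, 199 were also in deciles 1 and 2 at stage 15 and 2 in deciles 9 and 10. Of the 145 in deciles 9 and 10 after mof RNAi, 72 were in deciles 9 and 10 at stage 15 and 5 in deciles 1 and 2.

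**Figure D2:**
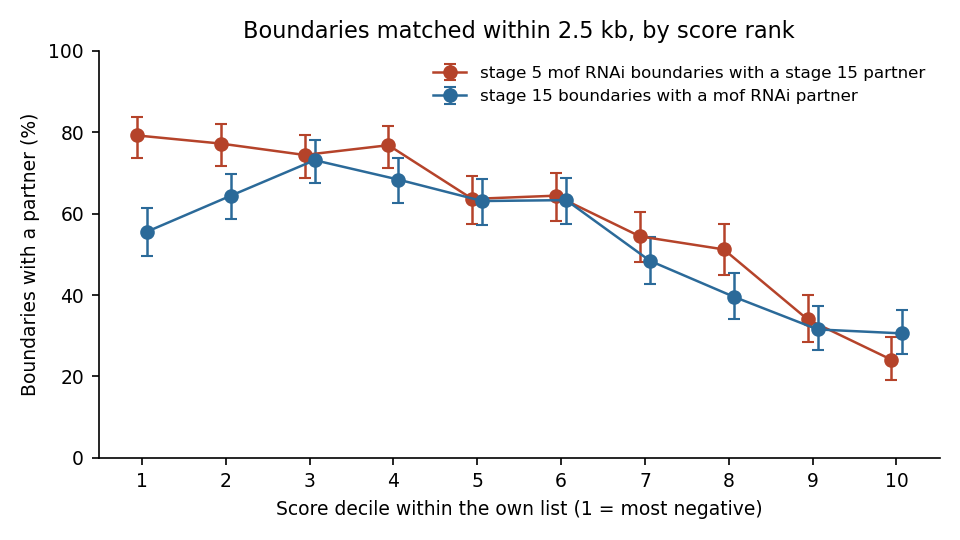
Share of boundaries with a partner (%, vertical axis) by score decile within the own list (horizontal axis, 1 = most negative), with 95% Wilson intervals. Stage 5 mof RNAi boundaries (red) go down from 79.2% in the first decile to 24.1% in the tenth, whereas stage 15 boundaries (blue) start at 55.6%, peak at 73.1% in the third decile and end at 30.6%.

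Boundaries that the mof RNAi blastoderm shares with the late embryo lay more often at gene ends than all mof RNAi boundaries. The shares within 2.5 kb of a gene end were 87.7% and 73.7% in turn. The share of the genome that lies so near a gene end is not given here. Of the 1841 mof RNAi boundaries within 2.5 kb of either annotated end of a protein-coding gene, 71.3% had a stage 15 partner, against 28.1% of the 658 others, a difference of 43.2 points (39.1 to 47.1). The share was 76.4% within 0.5 kb of a gene end, 65.8% beyond that up to 2.5 kb, 33.8% up to 10 kb and 23.0% further away. The annotation used gives no strand, so a gene end is either the start or the end of the gene.

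The gene-end difference held within each score class. In the more negative part of the mof RNAi list it was 77.2% at gene ends and 50.0% elsewhere, 27.2 points (18.4 to 35.8). In the less negative part it was 62.3% and 22.5%, 39.8 points (34.6 to 44.7). On X it was 67.5% at gene ends and 21.6% elsewhere, and on autosomes 72.2% and 29.5%. The control list gave 71.8% and 29.5%, a difference of 42.3 points.

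Counted from the boundary's side, 87.7% of the 1498 partnered mof RNAi boundaries lay within 2.5 kb of a gene end, against 52.7% of the 1001 without a partner and 45.0% of the 691 with no stage 15 boundary within 10 kb. Their median distance to a gene end was 0.527 kb with a partner and 2.12 kb without. Boundaries inside a gene body, more than 2.5 kb from its ends, made up 11.9% of those with a partner and 34.5% of those without. Genes of transfer RNAs lay within 2.5 kb of 1.40% of partnered and 1.10% of unpartnered mof RNAi boundaries, with overlapping intervals (0.919 to 2.13 and 0.615 to 1.96).

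**Figure D3:**
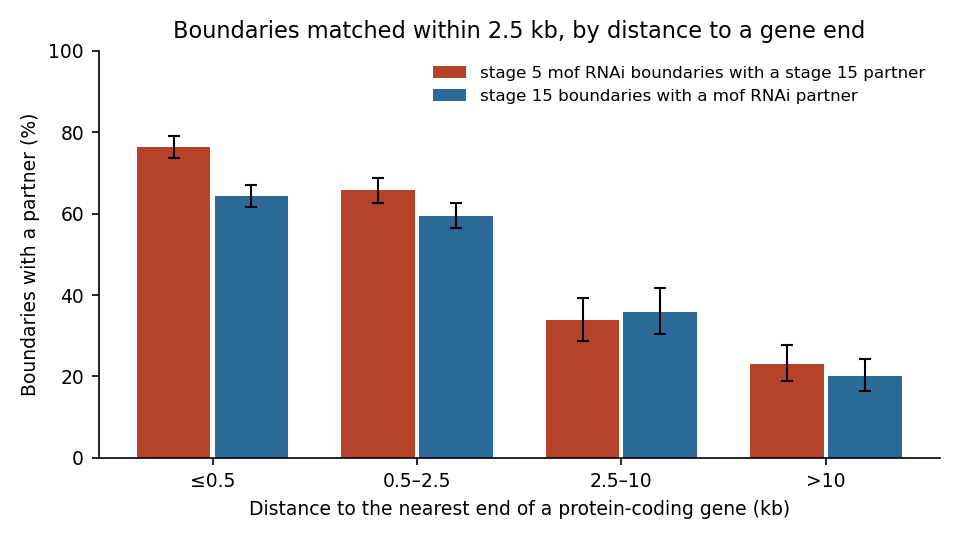
Share of boundaries with a partner (%, vertical axis) by distance of the boundary midpoint to the nearest end of a protein-coding gene (kb, horizontal axis), with 95% Wilson intervals. Stage 5 mof RNAi boundaries (red) stand at 76.4% within 0.5 kb and at 23.0% beyond 10 kb, and stage 15 boundaries (blue) at 64.3% and 20.0%.

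The most negative mof RNAi boundaries with a stage 15 partner were mostly on 3R. The top 2 lay near and inside Pzl, which encodes a Piezo-like protein, at chr3R:2546251-2553750 and chr3R:3168751-3171250 (dm6). The third was nearest CG12581. The fourth, at chr3R:21376251-21378750, lay 0.0985 kb from an end of mod(mdg4), whose products act at insulators, and its partner in the same bin ranked 47 of 2785 at stage 15. The nearest gene ends of 5 others were those of ATPsynC, dnk, rdhB, Pgk and Vha55. ATPsynC encodes a subunit of mitochondrial ATP synthase, dnk a deoxyribonucleoside kinase, rdhB a retinol dehydrogenase, Pgk the glycolytic enzyme phosphoglycerate kinase and Vha55 a subunit of the vacuolar proton pump. On X the boundary at chrX:9686251-9688750 lay 0.434 kb from an end of nej, the gene of the acetyltransferase CBP. It ranked 11 after mof RNAi and 48 at stage 15. Of these 10 pairs, 9 shared the same midpoint, and 9 of the 10 were in the same bin of the control list. Over all 1498 pairs 77.9% shared the midpoint. Of the stage 15 boundaries in these pairs, 93.3% had a control boundary within 2.5 kb.

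The most negative mof RNAi boundaries with no stage 15 boundary within 10 kb also lay at gene ends in 9 of 10 cases. That is near the share among all 1250 mof RNAi boundaries with the more negative scores, where 1116 did. The exception was inside Myo81F, a myosin gene, at chr3R:2478751-2486250. Sry-alpha, a gene of blastoderm cellularisation, had a boundary of rank 31 at chr3R:30041251-30043750, and the nearest stage 15 boundary was 15 kb away. The others were nearest x16, a splicing factor gene, CG15628, Hrb87F, which encodes an RNA-binding protein, CG1943, lilli, a gene of an elongation cofactor, His2Av, which encodes the H2A variant of flies, CG31176 and CG6712. Their nearest stage 15 boundaries were 11.25 to 30 kb away. All 10 had a control boundary within 2.5 kb. The share of all mof RNAi boundaries with a control boundary is not given here, so this count has no background beside it.

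A domain counted as whole when both its ends had partners and no boundary of the other list lay between them. Of the 2494 mof RNAi domains, 736 were whole at stage 15 (29.5%, interval 27.8 to 31.3), and they covered 20.2% of the domain length. A further 228 had both ends but at least 1 stage 15 boundary inside, 1066 had 1 end and 464 had no end. Of the 2780 stage 15 domains, the same 736 stretches were 26.5%, and 121 had both ends with a mof RNAi boundary inside. In the stage 5 control list, against the same stage 15 list, 827 of 2586 domains were whole (32.0%).

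More mof RNAi domains were split at stage 15 than stage 15 domains after mof RNAi, 9.14% (8.07 to 10.3) against 4.35% (3.65 to 5.18). The stage 15 list is also the denser one, with 2785 boundaries against 2499. The parts of list size and left-out bins in this difference were not tested. Median domain length was 40 kb after mof RNAi, 38.6 kb in the stage 5 control and 35 kb at stage 15. Whole mof RNAi domains had a median of 30 kb and split ones 72.5 kb, and a split needs room for an inner boundary. Of the 228 split domains 169 held 1 stage 15 boundary, 47 held 2, 8 held 3, 3 held 4 and 1 held 5. These 304 inner boundaries were low in the stage 15 ranking: 26.0% (21.4 to 31.2) were in its more negative part. They lay at a gene end in 73.4% of cases (68.1 to 78.0), near the 76.4% of all stage 15 boundaries. The 153 mof RNAi boundaries inside split stage 15 domains were at a gene end in 50.3% of cases (42.5 to 58.1), beside 73.7% of all mof RNAi boundaries.

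The share of whole domains was lower in the longer classes, in part by definition, since a longer domain has more room for an inner boundary. Of mof RNAi domains up to 20 kb, 42.9% were whole at stage 15, of those over 20 to 40 kb 40.5%, of those over 40 to 80 kb 22.3% and of those over 80 kb 7.09%. Both ends had partners in 42.9%, 42.8%, 37.7% and 27.6% of the same classes. Without the 878 domains that hold left-out bins, the whole shares were 44.0%, 43.6%, 28.3% and 15.6%.

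On X 118 of 450 mof RNAi domains were whole (26.2%), against 618 of 2044 on autosomes (30.2%), -4.01 points (-8.36 to 0.667). In the class over 20 to 40 kb the X had 31.3% (50 of 160) and the autosomes 42.6% (305 of 716), -11.3 points (-19.0 to -2.99), while in the 3 other classes the intervals included 0. The control list gave 43.5% on X and 43.9% on autosomes in that class. The class was picked out after its values were seen, and the difference between the 2 lists was not tested. Over all lengths, both ends had partners in 32.9% of mof RNAi domains on X and 39.9% on autosomes, whatever lay inside. That difference was -7.03 points (-11.7 to -2.09). The control list gave 38.3% and 41.5%, and here too the lists were not tested against each other.

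**Figure D4:**
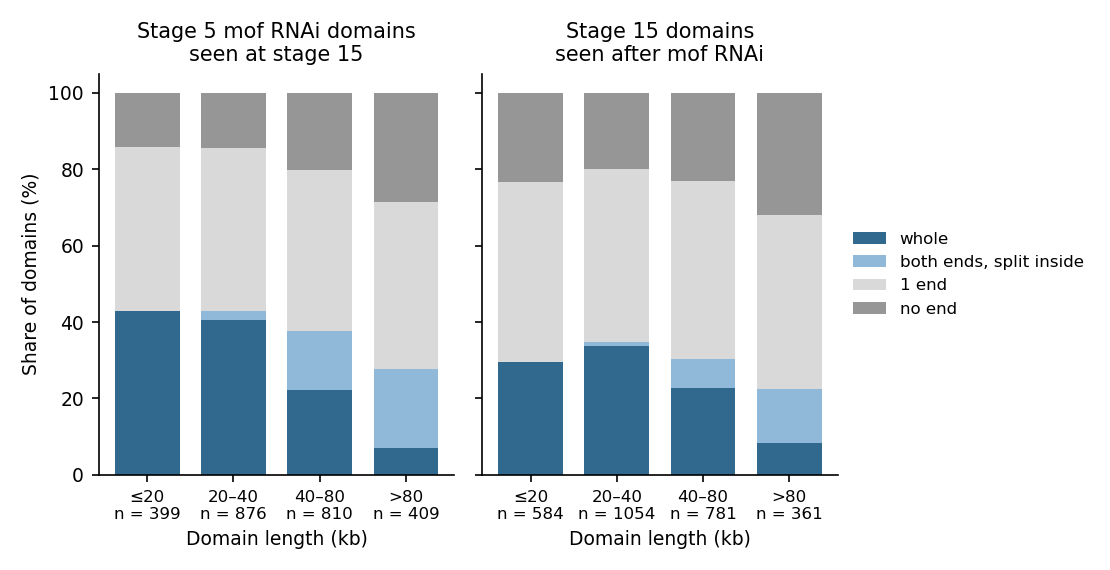
Share of domains (%, vertical axis) by length class (kb, horizontal axis) that were whole in the other list, had both ends but were split inside, had 1 end or had no end. Left, stage 5 mof RNAi domains looked up at stage 15; right, stage 15 domains looked up after mof RNAi. Whole domains go from 42.9% to 7.09% on the left as length grows, and split ones reach 20.5%.

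Whole domains were gene-dense. Their median was 13.3 protein-coding genes per 100 kb, against 8.70 for mof RNAi domains that were not whole and 4.74 for those with neither end at stage 15. Part of this moved with length and left-out bins. Over all lengths without left-out bins the medians were 14.5 for whole domains and 12.7 for those not whole. Among domains over 20 to 40 kb without left-out bins the medians were 16.0 for whole domains, 20.8 for the 18 split, 13.3 for those with 1 end and 10.7 for those with no end, with wide quartiles. Among those over 40 to 80 kb without left-out bins they were 8.89, 16.8, 10.0 and 10.2, so whole domains were not the densest there. Of the 216 mof RNAi domains that held no gene midpoint, 25 were whole (11.6%), against 34.7% of domains with 4 to 9 genes. Of the 423 domains with 10 or more genes 21.3% were whole and 102 were split.

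**Figure D5:**
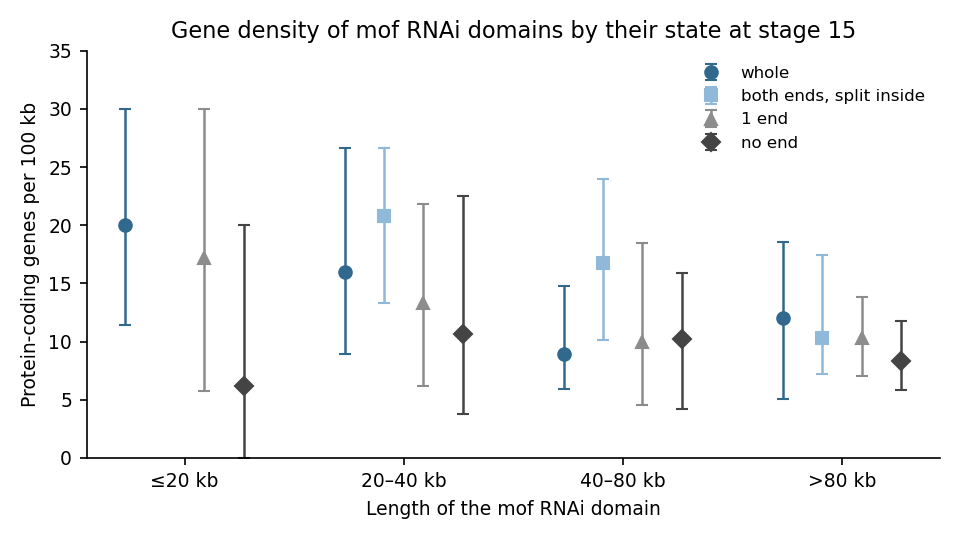
Protein-coding genes per 100 kb (vertical axis) in mof RNAi domains without left-out bins, by length class (kb, horizontal axis) and by their state at stage 15. Points are medians and bars the quartiles. Domains with no end at stage 15 have the lowest median up to 20 kb (6.19), and split domains the highest from 40 to 80 kb (16.8).

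Neighbouring domains share an end, so whole domains adjoin in part by definition. The 736 fell into 347 uninterrupted runs, 154 of which were a single domain and 99 of which held 3 or more domains and 394 domains in all. The longest run was on X, 10 domains over 377.5 kb (chrX:1133751-1513750) with 51 genes, among them futsch, a neuronal microtubule gene, png, a kinase gene of the egg-to-embryo transition, and AMPKalpha, an energy-sensing kinase gene. The next held 9 domains over 345 kb (chr3R:21273751-21621250) with 19 genes. It covers the NK homeobox cluster with tin and bap, which specify heart and visceral muscle, lbl and lbe, C15 and slou, together with mod(mdg4) and the insulin receptor gene InR. A run of 8 domains (chr3R:24848751-25123750) held 59 genes, including the paired forkhead genes fd96Ca and fd96Cb.

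The 8 longest whole domains without left-out bins were 87.5 to 100 kb long and held 2 to 32 genes each. The 2 longest lay on 2L, 1 of 100 kb with 8 genes (chr2L:5623751-5726250) and 1 of 97.5 kb with 3 genes, among them the acetylcholine receptor subunit gene nAChRalpha6 (chr2L:9788751-9888750). The 3 not described further held 15, 11 and 10 genes. The stretch between salr and salm, a pair of spalt-family regulators, was 87.5 kb long (chr2L:11358751-11448750) and held only those 2 genes. A domain of the same length (chr2L:3528751-3618750) held odd, sob and drm, the related zinc finger genes of the odd-skipped family, with 2 others. The domain of ana3 and Dyb on 2R was 92.5 kb long (chr2R:12343751-12438750) and held 32 genes, including the Cpr49A cuticle protein cluster. The densest whole domain of 20 kb or more (chr2R:18376251-18413750) had 62.9 genes per 100 kb. It holds the Bomanin immune peptide genes of the 55C cluster, glutathione transferase genes from GstE1 to GstE10 and imd, an adaptor gene of the immune deficiency pathway. The longest split domain without left-out bins was 155 kb, between fz2, a Wnt receptor gene, and fal (chr3L:19138751-19296250), with 2 stage 15 boundaries inside. On X the longest such domain, 112.5 kb with 29 genes (chrX:19636251-19751250), began at e(y)3 and held dome, the JAK/STAT receptor gene.

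Of 13842 protein-coding genes on the 5 arms, 4086 (29.5%) had an end within 2.5 kb of a mof RNAi boundary, and 3071 of those (75.2%) were also at a stage 15 boundary. The gene groups below are read beside these shares. Most are small with wide intervals, and genes that share a domain or a boundary are not independent. A gene is assigned to the domain of its midpoint, so domain counts and lengths depend on that rule where a boundary cuts a gene.

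The gap genes divide the embryo into broad regions. Of 6 gap genes, Kr, kni, hb and tll were at a mof RNAi boundary and none of these 4 was at a stage 15 boundary (interval 0 to 49.0%). The nearest stage 15 boundary lay 15 kb from that mof RNAi boundary for kni and hb, 20 kb for tll and 42.5 kb for Kr. The same 4 were at a control boundary.

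Of 12 genes transcribed early or acting in sex determination, 9 were at a mof RNAi boundary and 2 of these at a stage 15 boundary (22.2%, 6.32 to 54.7). These 2 were Sxl, the master switch of female development, and fru, which acts in neurons. Sry-alpha, slam, halo, Z600 and term were at a mof RNAi boundary that had no partner, with the nearest stage 15 boundary 12.5 to 32.5 kb away. For sisA, an X-linked counting gene, and bnk the boundary had a partner 2.5 kb further off, so that only the gene fell outside the window. The late domain was longer for 9 of the 12 and shorter for fru alone. Over all 13794 genes compared the stage 15 domain was longer for 32.7% and the mof RNAi domain for 49.4%. Z600, a regulator of early mitoses, sat in a domain of 12.5 kb after mof RNAi and of 60 kb at stage 15, and slam, needed for cellularisation, in 17.5 and 72.5 kb. The value for slam rests on its midpoint, which lay 0.164 kb from a mof RNAi boundary midpoint. The mof RNAi domain on the other side was 37.5 kb long.

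Other patterning groups were mixed. Of 9 pair-rule genes, 3 were at a mof RNAi boundary and 1 of these, opa, at a stage 15 boundary. Those of eve and ftz stood whole, in domains of 17.5 kb (chr2R:9971251-9991250) and 65 kb (chr3R:6846251-6913750), and those of odd and opa as well. The stage 15 domain was longer for the other 5, among them prd with 40 kb after mof RNAi and 122.5 kb at stage 15. Also among them were hry and run, whose midpoints lay 0.006 and 1.00 kb from a mof RNAi boundary midpoint. Of 10 dorsoventral genes, 5 were at a mof RNAi boundary, 2 of these at a stage 15 boundary, and 8 had the longer domain at stage 15. For segment polarity genes it was 3 of 4, with ptc, en and hh at a boundary in both lists and inv in the mof RNAi list only. The domain of inv and en was 55 kb after mof RNAi and their stage 15 domain 77.5 kb. Here the end beside en was in the same bin and the end beside inv was 22.5 kb from the nearest stage 15 boundary.

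The 12 genes of the Hox clusters, most of which give segments their identity, had boundaries in common. All 6 at a mof RNAi boundary (lab, pb, bcd, Scr, Ubx and Abd-B) were also at a stage 15 boundary (interval 61.0 to 100%), and 7 of the 12 lay in whole domains (58.3%, 32.0 to 80.7, beside 27.4% of all genes). These 7 genes occupy only 4 whole domains, so the count repeats domains. The midpoints of Antp, Ubx, abd-A and Abd-B lay in domains with 1 end at stage 15. Boundaries cut some of these genes. The mof RNAi list had 2 boundaries inside Ubx, 2 inside Abd-B and 3 inside Antp, against 1 each at stage 15. Parts of Antp and Abd-B lay in whole mof RNAi domains, of 65 and 32.5 kb. Lengths below are of the domain that holds the midpoint. The domain of Ubx was 62.5 kb after mof RNAi and 47.5 kb at stage 15, that of abd-A 35 kb and 70 kb, that of Abd-B 37.5 kb and 50 kb, and that of Antp 63.75 kb and 87.5 kb.

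Genes of general function kept their boundaries at about the rate of all genes. For ribosomal proteins 44 of 54 were at both (81.5%, 69.2 to 89.6), for mitochondrial ribosomal proteins 29 of 39 (74.4%) and for proteasome subunits 13 of 17 (76.5%). Ribosomal protein genes were at a mof RNAi boundary more often than all genes, 54 of 84 (64.3%, 53.6 to 73.7). Genes of architectural proteins were at both in 9 of 9 cases, among them mod(mdg4), Cp190, pita and BEAF-32. For Polycomb and Trithorax genes it was 6 of 7.

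The genes of the complexes that hold MOF itself are few. Of 6 NSL genes, 5 were at a mof RNAi boundary and 4 of these at a stage 15 boundary, MBD-R2 being the exception, and 3 stood in whole domains (interval 18.8 to 81.2%). Of 8 genes of the MSL complex and its adaptor, Clamp, mle and roX2 were at a boundary in both lists, and no gene stood in a whole domain (interval up to 32.4%, beside 27.4% of all genes). Split domains held 3 of the 8 (interval 13.7 to 69.4%, beside 16.9% of all genes), and these are the 3 on X, mof, roX1 and roX2. Both counts rest on the rule that a gene belongs to the domain of its midpoint. The midpoint of roX1 lay 0.0365 kb and that of roX2 0.252 kb from a mof RNAi boundary midpoint, and the domains on the other side, of 20 and 42.5 kb, were whole. A domain beyond a boundary inside mle was also whole. The mof gene lay in a mof RNAi domain of 115 kb (chrX:5763751-5881250), which held 2 stage 15 boundaries, and in a stage 15 domain of 62.5 kb. The roX1 gene had 50 kb after mof RNAi and 20 kb at stage 15. The roX2 gene, with a boundary over it in both lists, had a domain of 125 kb with 3 inner stage 15 boundaries and a stage 15 domain of 22.5 kb. The mof RNAi domains of mof and roX2 held 1 and 3 left-out bins, and the part of length and of these bins was not tested. The mof RNAi boundary over roX1 ranked among the most negative 0.920% and had its partner 2.5 kb away. The mof RNAi boundary over roX1 lay 2.70 kb from the nearer end of the gene, just outside the 2.5 kb window. In the control list a boundary lay 0.198 kb from an end of roX1, and roX2 was 9.06 kb from one. The autosomal msl-3 had a stage 15 boundary 0.534 kb from an end, and its nearest mof RNAi boundary was 9.47 kb away.

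Late tissues are absent from the blastoderm, and their genes were read for the domain they lay in. Of 9 neuronal and glial genes 1 was at a mof RNAi boundary, brp, an active zone gene, and 4 lay in split domains (44.4%, 18.9 to 73.3, beside 16.9% of all genes). The 4 were Syt1 and nSyb of synaptic vesicles, brp, and repo of glia. Of 9 muscle genes 4 (wupA, Act57B, Tm1 and Tm2) lay in whole domains (44.4%, 18.9 to 73.3, beside 27.4% of all genes). These 4 occupy 3 whole domains. Mhc, Mef2 and sls lay in split domains, and 6 of the 9 had the longer domain after mof RNAi. Of 70 Cpr cuticle protein genes, which occur in clusters, 19 lay in split domains (27.1%, 18.1 to 38.5) and 47 had the longer domain after mof RNAi (67.1%, 55.5 to 77.0). The Cpr65A group had a mof RNAi domain of 140 kb and stage 15 domains of 32.5 and 27.5 kb. These 70 genes occupy 32 mof RNAi domains, 8 of them split, so the gene counts repeat domains. The median mof RNAi domain was 77.5 kb for the neuronal and glial genes and 82.5 kb for the Cpr genes, against 52.5 kb for all genes. Of all mof RNAi domains, 0% up to 20 kb and 20.5% over 80 kb were split, since a split needs room. The part of domain length in these group counts was not tested. Odorant and gustatory receptor genes were near the background, with 17 of 119 in split domains (14.3%). Of 9 genes of epidermis, gut and trachea none was in a split domain, and 7 had the longer domain at stage 15.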

How the data were processed

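Nuclei were prepared for in situ Hi-C with the enzyme DpnII from 50 to 100 hand-staged embryos per library, fixed in 1.8% formaldehyde for 15 min, per the labels' protocols. The authors deposited boundary lists of intervals on 2.5 kb bins of dm6 (build per the submitters' processing notes), each with a boundary score. Not given in the sources used here are the scale of that score, the caller, its settings, the read depths and the pooling of libraries. Another deposited list equalled the stage 5 control list and was not used. Left-out bins were read from gaps in boundary numbering.

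Midpoints were matched within 2.5 kb in Python 3.11.15 with numpy 2.4.6, pandas 2.3.3 and statsmodels 0.14.6. Genes came from a RefSeq table of the assembly Release 6 plus ISO1 MT, to which dm6 corresponds, without strand, and a gene belongs to the domain that holds its midpoint. Of the listed symbols ci, Z4 and bt were not found. Named boundaries are the 10 most negative mof RNAi scores with a partner and the 10 without a stage 15 boundary within 10 kb; named domains are those of greatest length (without left-out bins) or gene density, and lists of up to 12 genes may be named whole, longer ones by up to 4 genes at a boundary. The longest runs, the genes inside named domains and the Cpr65A group were singled out after their values were seen. The members, groups of genes and loci were chosen with earlier results of these data known. Matching was tested on simulated lists. Planned motif counts in promoters were not run, since no sequence was used here. Alternatives tried were the tolerance, one-to-one matching, the more negative scores only, exclusion of wide boundaries, left-out bins, short and very long domains or regions near centromeres, the rule for whole domains and the gene window.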

Additional observations from a re-analysis of the deposited data

How the results depend on the processing

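With the tolerance at 0, 5 and 10 kb, 46.7%, 66.1% and 72.3% of mof RNAi boundaries had a stage 15 partner and 41.9%, 59.3% and 65.1% of stage 15 boundaries a mof RNAi partner. The control share was 48.7%, 67.1% and 73.1%. Whole mof RNAi domains were 18.9%, 35.1% and 41.5%, and whole stage 15 domains 16.9%, 31.5% and 37.4%. Same-midpoint pairs were 70.7% and 64.5% at 5 and 10 kb. The difference in whole share between mof RNAi domains up to 20 kb and over 80 kb was 23.2 points at 0 kb and 43.9 points at 10 kb, and 28.4 points without left-out bins, beside 35.8 points in the report's setting. With the most negative 50% of each list, 57.9% of mof RNAi boundaries had a partner, whole mof RNAi domains were 24.9% and whole stage 15 domains 22.4%, and the median mof RNAi domain was 57.5 kb. The X difference then reversed for boundaries (4.18 points) and was 2.99 points for whole domains; the cause was not tested. Away from left-out bins, partners were found for 67.9% of mof RNAi and 59.9% of stage 15 boundaries. Whole domains there were 38.1% and 42.5%, the gene-end difference was 38.6 points and the median mof RNAi domain 32.5 kb. The stage 15 list skips no bins, so its boundaries and domains were selected through the mof RNAi list. This kept 1357 of 2780 stage 15 domains, against 1616 of 2494 mof RNAi domains. The effect of that selection on the whole shares was not tested, so 38.1% and 42.5% cannot be compared. Counting every domain with both ends gave 38.7% and 30.8%. Gene ends within 1 kb gave a difference of 34.2 points. Genes at a mof RNAi boundary were also at a stage 15 boundary in 69.4% of cases within 1 kb and 79.0% within 5 kb; no gap gene was at a mof RNAi boundary within 1 kb, so that share has no value. The other 57 values stayed within the intervals of the report. The regions near centromeres, and the tolerances and left-out bins for shares by score, length and gene density and for the control list, were added after seeing the data.

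No paired analysis was possible because each condition is 1 pooled list, and for the same reason no replicate could be left out. Depth is unknown, so a boundary missing from a list may be one that its map could not show. Samples of both sexes and both RNAi groups name the stage 15 list, and only the stage 5 lists skip bins. The X difference for boundaries had an interval that included 0 with tolerances of 0, 5 and 10 kb, away from left-out bins and without the 2 Mb next to centromeres. Its interval excluded 0 with one-to-one matching, -5.23 points (-10.3 to -0.239). Without boundaries wider than 1 bin it also excluded 0, -5.69 points (-10.9 to -0.598). For domains the interval excluded 0 when every domain with both ends was counted, -7.03 points (-11.7 to -2.09).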
